A study of Mus musculus with 10 samples.

Results

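The comparison described here is between the cortex of mice labelled DGCR8 heterozygote (DGCR8 HET, 2 libraries) and DGCR8 wild type (DGCR8 WT, 2 libraries), which are 4 of the 10 small RNA libraries of a study of Dicer and DGCR8 conditional knock-out mice. They were chosen by their genotype label alone, and 557 of 1432 mature miRNA names carried enough reads to be tested. All tissue was cortex at embryonic stage E13.5, with 2 mice for each genotype and 1000 ng of total RNA in each library. The 2 DGCR8 knock-out libraries (DGCR8 KO) enter as the group in which both copies were targeted. The heterozygotes are labelled only as such: no source used here names the driver of the deletion, says whether the heterozygous copy was lost in every cell, or gives the share of cells affected. Dgcr8 mRNA was not measured in these small RNA libraries, so no value here checks the dose of the gene. The number in the DGCR8 column names of the table (S9808) differs from that in the sample descriptions (S9810), and columns were matched on the line and index number, on which every value below rests.

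DGCR8 is the RNA-binding partner of the nuclease Drosha. Together they form the Microprocessor, which cuts the hairpin out of a primary miRNA transcript in the nucleus, after which Dicer cuts off the loop and frees the mature miRNA. Some miRNAs skip the first cut: mirtrons are freed by splicing, and a few hairpins start at a transcription start site. After maturation, terminal transferases can add U or A to the 3′ end, and each miRNA recognises its targets mainly through its seed. In humans the DGCR8 gene lies in the region lost in the 22q11 deletion, and mice with 1 copy have been used as a model of that loss. The Microprocessor also cuts a hairpin within the Dgcr8 transcript itself, which is a known feedback on DGCR8.

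The sequences below carry the main contrasts, and are credited to RefSeq (GRCm38.p6), where 478 of the 557 tested names had a mature sequence. Capitals mark the seed, bases 2 to 8. The first 3 are abundant in the cortex and share 1 seed, and miR-9-5p is the brain miRNA at a level similar to that of miR-92a-3p. The others were high in a single heterozygote library, as given further on, and the first 2 of those share a seed with each other.
miR-92a-3p: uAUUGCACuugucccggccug
miR-92b-3p: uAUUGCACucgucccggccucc
miR-25-3p: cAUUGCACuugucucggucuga
miR-9-5p: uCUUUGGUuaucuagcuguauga
miR-200b-3p: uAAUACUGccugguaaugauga
miR-429-3p: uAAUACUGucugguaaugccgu
miR-200a-3p: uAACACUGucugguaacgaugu
miR-199a-5p: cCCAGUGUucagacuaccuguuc
miR-204-5p: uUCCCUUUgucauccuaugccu

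The DGCR8 WT libraries held 2608742 and 2420701 miRNA reads, the DGCR8 HET libraries 2364463 and 2468929, and the DGCR8 KO libraries 2011508 and 1535333. Levels are given as CPM (read counts scaled to a common library size) after TMM scaling (trimmed mean of M values), so a level is relative to the rest of its library and a drop common to every miRNA leaves no trace in it. The 10 miRNAs most abundant in WT took 58.7% and 59.5% of the reads in WT and 59.3% and 58.7% in HET. Cortical markers were present in every library: miR-124-3p, the neuronal miRNA, stood at 2112 and 1948 CPM in WT and at 1956 and 1500 CPM in HET. In bulk tissue, fewer cells of a type and less RNA per cell cannot be told apart.

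DGCR8 HET replicate 2 stood apart from the other 3 libraries of the comparison. It exceeded HET replicate 1 by over 2-fold in 40 of 557 miRNAs (7.18%, with 0.5 CPM added to each value), while WT replicate 2 exceeded WT replicate 1 by as much in 17. Of those 40 miRNAs, 22 belong to the lists of miRNAs typical of other tissues. Among the choroid plexus and epithelial miRNAs, 10 of 15 tested members were over 2-fold higher in HET replicate 2 than in HET replicate 1, and so were 5 of 7 mesenchymal and cartilage miRNAs, 5 of 15 vessel and blood miRNAs, 2 of 2 posterior Hox miRNAs and 0 of 1 muscle miRNA. None of the 18 let-7 members, the 25 miR-181, miR-30 and miR-26 members or the 23 neuron-enriched members differed by that much in that direction.

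The epithelial miR-200 family showed the gap most plainly. miR-200b-3p, which with its family represses the ZEB transcription factors in epithelia, was at 3.58 and 9.48 CPM in WT and at 13.51 and 174 CPM in HET. miR-429-3p, of the same seed, was at 6.36 and 9.03 CPM in WT and at 11.8 and 136.1 CPM in HET. In both, HET replicate 1 lay above both wild types and HET replicate 2 lay far above all 3. The log2 fold change without HET replicate 2 was 1.06 for miR-200b-3p and 0.62 for miR-429-3p. miR-199a-5p, a miRNA of mesenchymal cells, was at 3.58 and 6.77 CPM in WT and at 9.15 and 96.8 CPM in HET, and miR-199b-3p, whose sequence is also that of miR-199a-3p, was at 26.2 and 19.4 CPM against 26.6 and 276.5 CPM. miR-204-5p, abundant in the choroid plexus and the pigmented epithelium of the eye, was at 867 and 940 CPM in WT and at 641 and 4373 CPM in HET. Here the WT libraries fell between the HET libraries, so the groups overlapped.

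The share of reads of a list was summed over all its names, tested or not. The choroid plexus and epithelial list took 0.149% and 0.152% of reads in WT, 0.122% and 0.586% in HET, and 0.353% and 0.155% in KO. The vessel and blood list took 0.612% and 0.611% in WT, 0.603% and 0.972% in HET, and 1.08% and 0.967% in KO. The mesenchymal and cartilage list took 0.0743% and 0.0751% in WT and 0.0776% and 0.112% in HET, and 0.103% and 0.0969% in KO. No tested member of the first list was at 0 in any of the 4 libraries, nor was any of the second, and in the third only miR-214-5p had a 0, in WT replicate 1. The part of these tissues in the differences below was not tested, and the main results that move with HET replicate 2 are given with and without it.

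**Figure D1:**
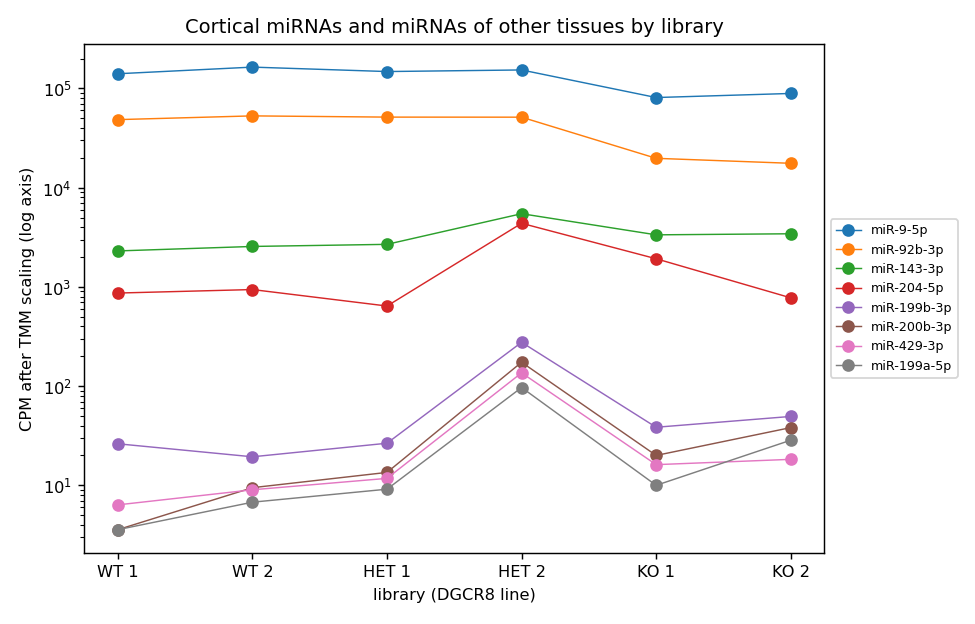
Level of 8 miRNAs in the 6 DGCR8 libraries, in CPM after TMM scaling on a log axis; each line joins the libraries of 1 miRNA and carries no order. The cortical miR-9-5p and miR-92b-3p were level over the WT and HET libraries, while the miRNAs of other tissues peaked in HET replicate 2, miR-200b-3p at 174 CPM.

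The first question was whether any miRNA differed in level between DGCR8 HET and DGCR8 WT cortex. By edgeR's quasi-likelihood test with Benjamini-Hochberg adjustment over the 557 miRNAs, 0 were called at an adjusted p below 0.05 (0%), and the lowest adjusted p was 0.858. Unadjusted, 23 miRNAs (4.13%) had a p below 0.05, 19 of them higher and 4 lower in HET. DESeq2 on the same counts also called 0, with 20 below an unadjusted 0.05 and a lowest adjusted p of 0.0711. The median log2 fold change over all 557 was 0.02. Without HET replicate 2 there were again 0 calls, with 13 below an unadjusted 0.05.

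Leaving out HET replicate 1 instead gave 13 calls, all higher: miR-126a-5p, miR-143-3p, miR-145a-5p, miR-182-5p, miR-199a-5p, miR-199b-3p, miR-199b-5p, miR-200a-3p, miR-200b-3p, miR-214-3p, miR-214-5p, miR-429-3p and miR-483-5p. Of these, 11 are in the vessel, epithelial and mesenchymal lists. Testing with no filter on low counts gave 18 calls among 1249 miRNAs, again all higher. In each of the 18, HET replicate 2 held the most reads of the 4 libraries. Where 1 library stands for a group, the fit assumes that it varies like the other groups.

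The most abundant miRNAs were those for which the interval of the difference was narrow. miR-92a-3p, of the miR-17-92 cluster that drives growth of neural progenitors, was at 145260 and 148959 CPM in WT and at 153318 and 145537 CPM in HET. Its log2 fold change was 0.02 ± 0.10 (SE, n = 2 libraries per group), with a 95% interval from -0.21 to 0.26, and the groups overlapped. miR-9-5p, which controls the timing of neurogenesis, was at 140509 and 163917 CPM in WT and at 147879 and 153456 CPM in HET, with both HET values between the WT values. This is a log2 fold change of -0.01 ± 0.17, with an interval from -0.39 to 0.36.

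miR-92b-3p, a miRNA of cortical progenitors with the seed of miR-92a-3p, was at 48469 and 52868 CPM in WT and at 51378 and 51299 CPM in HET, a log2 fold change of 0.02 ± 0.11. miR-181a-5p was at 98236 and 101352 CPM in WT and at 90908 and 98465 CPM in HET, a log2 fold change of -0.08 ± 0.13. miR-26a-5p gave -0.04 ± 0.12, miR-16-5p -0.07 ± 0.19 and miR-125b-5p -0.02 ± 0.15 on the same scale. The 3 abundant miR-30 members had log2 fold changes of -0.03 ± 0.12 for miR-30a-5p, 0.00 ± 0.11 for miR-30c-5p and -0.01 ± 0.13 for miR-30e-5p.

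How far a difference can be bounded depended on the level. Of 86 miRNAs at 1000 CPM or more in WT, 85 (98.8%) had a 95% interval that lay within 1 on the log2 scale on either side of 0, that is, within 2-fold, and 44 lay within 0.5. The same held within 1 for 107 of 121 miRNAs (88.4%) between 100 and 1000 CPM, for 113 of 176 (64.2%) between 10 and 100 CPM, and for 19 of 174 (10.9%) below 10 CPM. Thus a 2-fold difference lay outside the interval for nearly all abundant miRNAs, while for most of the rare ones it did not.

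The median difference between genotypes lay between the median differences of the 2 pairs of replicates. The median size of the log2 difference between HET and WT was 0.187 over all 557 miRNAs, against 0.178 between the 2 WT libraries and 0.247 between the 2 HET libraries. At 1000 CPM or more the 3 values were 0.0964, 0.0763 and 0.105. A fold change averages 2 libraries a side and a replicate difference does not, so for the same spread the fold change is the smaller. Similar sizes thus do not show that the genotypes are alike, and these are descriptions side by side.

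**Figure D2:**
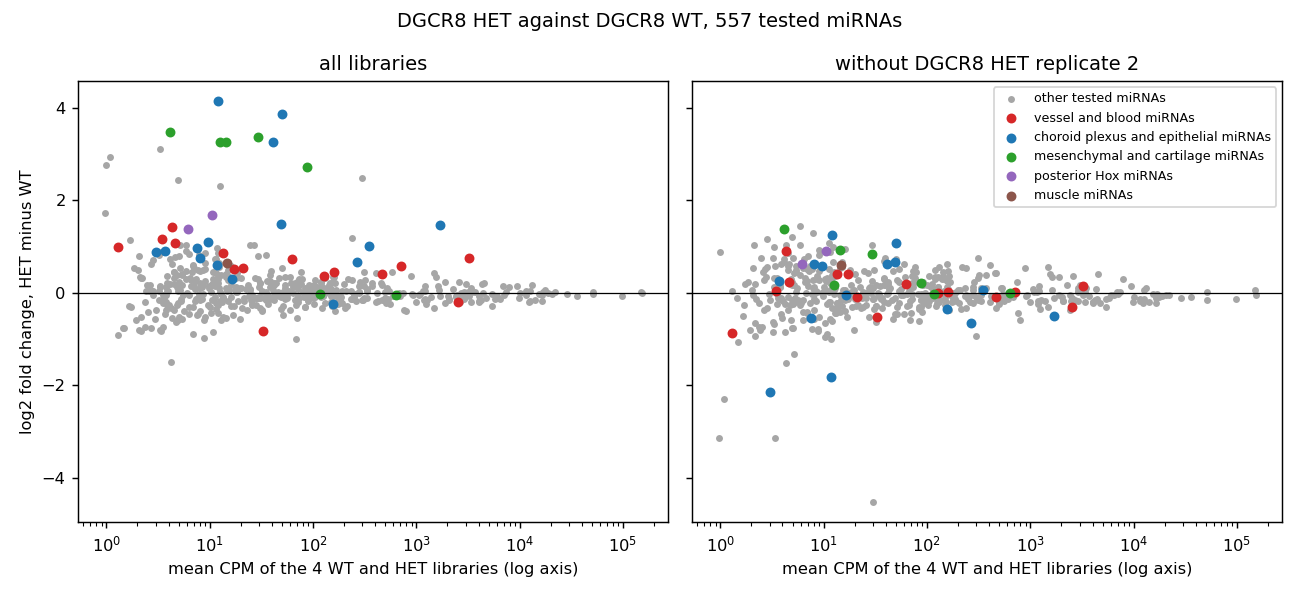
Log2 fold change of DGCR8 HET against DGCR8 WT by mean CPM (log axis) for 557 miRNAs, with all libraries on the left and without DGCR8 HET replicate 2 on the right; colours mark 5 lists of miRNAs of other tissues. Abundant miRNAs lie near 0 in both panels, and the mesenchymal list, with a median of 3.25 on the left, has a median of 0.22 on the right.

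In 18 miRNAs (3.23% of 557) both HET libraries were higher than both WT libraries and the fold change exceeded 2-fold, and in 2 (0.359%) both were lower by over 2-fold. The 18 include 14 members of the epithelial, mesenchymal, vessel and posterior Hox lists. None of the 20 was called. The 2 lower ones were miR-3059-5p, at 101 and 81.2 CPM in WT and at 60.1 and 30.5 CPM in HET, and miR-490-5p, at 7.95 and 4.51 CPM against 3.49 and 0.872 CPM. For both, HET replicate 2 was the lower heterozygote library. The adjusted p was 0.907 for miR-3059-5p and 0.963 for miR-490-5p by edgeR's quasi-likelihood test.

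Groups without overlap were common. Whatever the fold change, both HET libraries lay above both WT libraries in 101 of 557 miRNAs and below both in 117. Of 210 tested miRNAs at 100 CPM or more, 91 had groups that did not overlap. Among these 91, the 5 highest fold changes were those of miR-34c-5p, miR-143-3p, miR-431-5p, miR-335-3p and miR-409-3p. None was called. miR-143-3p, a smooth muscle miRNA, was at 2303 and 2556 CPM in WT and at 2683 and 5463 CPM in HET, a log2 fold change of 0.75 ± 0.28 (unadjusted p = 0.0244 and adjusted p = 0.907 by edgeR's quasi-likelihood test). HET replicate 1 lay just above the WT libraries and HET replicate 2 lay apart. Without HET replicate 2 the log2 fold change of miR-143-3p was 0.14 ± 0.19. miR-34c-5p, a miRNA of multiciliated cells, was at 226 and 232 CPM in WT and at 239 and 683 CPM in HET, and its log2 fold change of 1.01 ± 0.60 became 0.06 without HET replicate 2.

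miR-335-3p had another pattern. This miRNA, from an intron of the imprinted gene Mest, was at 1234 and 1278 CPM in WT and at 1840 and 1558 CPM in HET, with HET replicate 1 the highest. That gave a log2 fold change of 0.44 ± 0.19, with an unadjusted p of 0.0424 and an adjusted p of 0.993 by edgeR's quasi-likelihood test. miR-431-5p, with a log2 fold change of 0.44 ± 0.29, and miR-409-3p, with 0.35 ± 0.28, come from the imprinted cluster described below.

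The 5 lowest came from 3 hairpins: both arms of miR-708, both arms of miR-488, and miR-350-5p. miR-708-5p was at 786 and 917 CPM in WT and at 632 and 691 CPM in HET, a log2 fold change of -0.36 ± 0.19. miR-708-3p was at 801 and 996 CPM in WT and at 594 and 769 CPM in HET, a log2 fold change of -0.40 ± 0.32. Both HET libraries lay below both WT libraries for each arm, as they did for 117 of all 557 miRNAs. The adjusted p was 0.993 for each arm by edgeR's quasi-likelihood test. The arms come from 1 hairpin and are not separate evidence. miR-488-5p, at 188 and 184 CPM against 143 and 140 CPM, had a log2 fold change of -0.40 ± 0.29. miR-488-3p and miR-350-5p had log2 fold changes of -0.34 ± 0.25 and -0.34 ± 0.17, also with adjusted p of 0.993 in that test.

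A hairpin within the Dgcr8 transcript gives mature miR-1306. It lies on the minus strand of chromosome 16 (GRCm38.p6) from 18284239 to 18284317, within exon 2 of Dgcr8 in the GENCODE annotation and within its coding part. It is shown because it lies inside the gene for which the mice are labelled heterozygous, and capitals mark the annotated mature arms, the 5p arm first.
Mir1306 hairpin: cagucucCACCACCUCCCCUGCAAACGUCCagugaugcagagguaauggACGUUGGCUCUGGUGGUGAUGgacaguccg
miR-1306-3p had 5 and 13 reads in WT, 14 and 6 in HET, and 9 and 5 in KO, and the groups overlapped. The log2 fold change in HET was 0.18 ± 0.67, with a 95% interval from -1.34 to 1.70 that holds both a halving and a doubling. No read of miR-1306-5p was counted in any of these 6 libraries.

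miR-185, miR-25 and miR-338 have been reported as lower in brain in mouse models with 1 Dgcr8 copy or the wider deletion, and 5 of their names were tested. None was called. The age and brain region of those reports were not compared with E13.5 cortex here. Mir185 lies on chromosome 16, as Dgcr8 does, and whether the wider deletion also removes it was not checked. miR-25-3p was at 13092 and 13766 CPM in WT and at 12179 and 11662 CPM in HET, so both HET libraries were lower. Its log2 fold change was -0.17 ± 0.10, with a 95% interval from -0.40 to 0.05 and an adjusted p of 0.993 by edgeR's quasi-likelihood test. miR-185-5p was at 73.2 and 72.7 CPM in WT and at 66.2 and 71.5 CPM in HET, a log2 fold change of -0.08 ± 0.22. miR-338-3p was at 9.14 and 9.48 CPM in WT and at 11.3 and 17.01 CPM in HET, a log2 fold change of 0.60 ± 0.29 with the HET libraries the higher ones, which was 0.28 ± 0.37 without HET replicate 2. miR-25-5p and miR-185-3p had log2 fold changes of -0.05 ± 0.22 and -0.04 ± 0.47.

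Lists of miRNAs are described by counts and by the median log2 fold change, beside 0.02 over all 557. No member of any of the 16 lists was called in HET against WT. The let-7 family, which promotes differentiation, had a median of -0.05 over 18 tested members, which was -0.15 without HET replicate 2 and 0.08 without HET replicate 1, so its sign turned with the library left out. Its members let-7c-5p and let-7f-5p had log2 fold changes of -0.05 ± 0.18 and 0.06 ± 0.18. miR-9 and miR-125 with miR-99 and miR-100 had a median of -0.05 over 13 members (-0.17 without HET replicate 2 and -0.01 without HET replicate 1). The miR-17-92 and paralog clusters had -0.07 over 23 (-0.10 without either HET library), and the miR-181, miR-30 and miR-26 families -0.04 over 25 (-0.08 without HET replicate 2 and -0.0047 without HET replicate 1).

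The neuron-enriched list had a median of -0.17 over 23 members, which became -0.01 without HET replicate 2 and -0.22 without HET replicate 1. Its summed share of reads was 2.28% and 2.34% in WT and 2.29% and 1.93% in HET, so replicate 2 was the low library here. miR-128-3p, the most abundant member, was at 16322 and 18205 CPM in WT and at 15894 and 14797 CPM in HET, a log2 fold change of -0.17 ± 0.33. miR-138-5p had a log2 fold change of -0.12 ± 0.19.

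The 12qF1 imprinted cluster is a large maternally expressed miRNA cluster. Of its 77 tested members, 63 had a fold change above 0, beside 298 of all 557 tested miRNAs. The median was 0.21 with all libraries, 0.35 without HET replicate 2 and 0.07 without HET replicate 1. Its summed share was 4.05% and 3.39% in WT and 4.57% and 3.80% in HET, so the groups overlapped. miR-127-3p was at 13210 and 11408 CPM in WT and at 13254 and 14388 CPM in HET, a log2 fold change of 0.17 ± 0.15, and miR-434-3p had 0.13 ± 0.19. Members that share a primary transcript are not independent of each other. The list also holds miR-3071-3p, which lies on the strand opposite to miR-127-3p and miR-434-3p and so cannot share their transcript.

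miRNAs that do not need DGCR8 had a median of 0.09 over 16 tested members, and the list numbered as mirtrons, which was taken from its names, had 0.11 over 21 (0.16 without HET replicate 2 and 0.01 without HET replicate 1). miR-484, whose hairpin starts at a transcription start site, was at 3111 and 3234 CPM in WT and at 3195 and 3191 CPM in HET, a log2 fold change of 0.01 ± 0.12. The tRNA-derived miR-1983 gave -0.02 ± 0.15. miR-6944-3p and miR-7068-3p, the most abundant of the mirtron list, gave 0.08 ± 0.15 and 0.20 ± 0.25. The Sfmbt2-type repeat family had a median of 0.14 over 19 members (0.29 without HET replicate 2), with -0.16 ± 0.21 for miR-669o-3p and 0.23 ± 0.27 for miR-466p-3p.

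The lists of other tissues had the medians farthest from 0. The choroid plexus and epithelial list had a median of 0.97 over 15 members with all libraries and 0.06 without it. The vessel and blood list went from 0.57 to 0.03 over 15 members, and its abundant erythroid member miR-486-5p had a log2 fold change of -0.20 ± 0.16. The mesenchymal and cartilage list went from 3.25 to 0.22 over 7 members, while its abundant cartilage members miR-140-3p and miR-140-5p had -0.04 ± 0.16 and -0.04 ± 0.22 with all libraries. The posterior Hox list, miR-10a-5p and miR-10b-5p, went from 1.53 to 0.75, and miR-133a-3p, the 1 tested muscle miRNA, from 0.64 to 0.59.

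**Figure D3:**
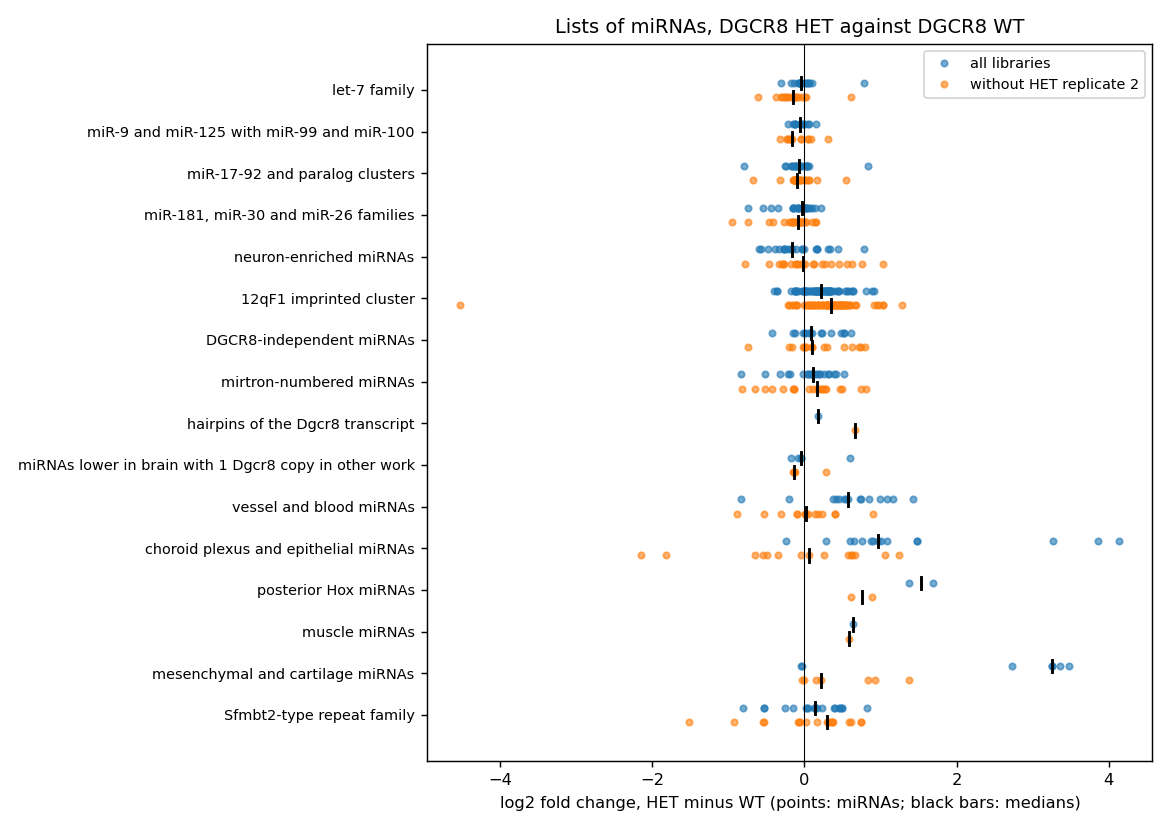
Log2 fold change of DGCR8 HET against DGCR8 WT for the tested members of 16 lists, with all libraries in blue and without DGCR8 HET replicate 2 in orange; points are miRNAs and black bars are list medians. The let-7 median is -0.05 in blue and -0.15 in orange, and the choroid plexus and epithelial median moves from 0.97 to 0.06.

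The knock-out set the scale for these differences. In the same fit, 48 of 557 miRNAs (8.62%) were called between DGCR8 KO and DGCR8 HET, 11 higher and 37 lower in KO, with 170 below an unadjusted p of 0.05. DGCR8 KO against DGCR8 WT, which shares the wild types with the comparison above, gave 115 (20.6%). The count against HET was 7 without HET replicate 2, 5 and 6 without KO replicates 1 and 2, and 15 and 14 without WT replicates 1 and 2, which enter only through the shared estimate of the spread. Under library totals in place of TMM the split of calls turned to 67 higher and 9 lower, as the median over all miRNAs moved from -0.07 to 0.33 on the log2 scale.

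The miRNAs named for this contrast were added after its values were seen, as the 5 highest and the 5 lowest of those at 100 CPM or more that were called. miR-92b-3p, level between WT and HET, was at 19750 and 17596 CPM in KO, a log2 fold change against HET of -1.46 ± 0.12 (adjusted p = 0.0003 by edgeR's quasi-likelihood test). miR-23a-3p was at 264 and 292 CPM in WT, 237 and 326 CPM in HET and 77.01 and 71.6 CPM in KO. Its log2 fold change was 0.02 ± 0.19 in HET against WT and -1.92 ± 0.19 in KO against HET (adjusted p = 0.0010 in that test). Both thus fell in the knock-out from a heterozygote level that overlapped the wild type.

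miR-708, both arms of which were among the 5 lowest at 100 CPM or more without overlap in the heterozygote, fell in the knock-out. miR-708-5p was at 191 and 201 CPM in KO, a log2 fold change against HET of -1.75 ± 0.20, and miR-708-3p was at 141 and 140 CPM, a log2 fold change of -2.28 ± 0.33 (adjusted p = 0.0016 and 0.0077 by edgeR's quasi-likelihood test). For each arm the 3 groups did not overlap and HET lay between WT and KO, although only the step to KO passed the test. miR-1251-5p fell by 1.27 ± 0.24 on the log2 scale (adjusted p = 0.0199 in the same test).

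Of the 11 miRNAs that rose between HET and KO, the 5 highest at 100 CPM or more were miR-137-3p, miR-344-3p, miR-376b-3p, miR-3071-3p and miR-381-3p. miR-344-3p, of a hairpin in the DGCR8-independent list, was at 330 and 313 CPM in WT, 344 and 335 CPM in HET and 660 and 658 CPM in KO, a rise of 0.96 ± 0.16 over HET (adjusted p = 0.0156 by edgeR's quasi-likelihood test). miR-137-3p, a neuronal miRNA, was at 128 and 128 CPM in WT, 162 and 88.5 CPM in HET and 294 and 247 CPM in KO, with the WT values between the HET values. The other 3 are in the 12qF1 list and rose by 0.75 to 0.81 on the log2 scale. Of these, miR-3071-3p lies on the strand opposite to miR-376b-3p and miR-381-3p. Without HET replicate 2 none of the 5 was called, with adjusted p from 0.106 to 0.262 by edgeR's quasi-likelihood test, and none was called without either KO library; miR-708-3p also lost its call without KO replicate 1 or 2, at adjusted p of 0.0722 and 0.0804, and miR-1251-5p without HET replicate 2 or KO replicate 2, at 0.0860 and 0.0953.

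By list, 5 of 18 let-7 members, 5 of 25 miR-181, miR-30 and miR-26 members, 2 of 23 miR-17-92 members and 1 of 13 of the miR-9 list fell between HET and KO, beside 6.64% of all tested miRNAs, and none of these lists had a member that rose. For the last 2 lists, the fraction of members called is near that background. These falls are in levels after TMM scaling, whose factors were 0.971 and 0.929 in HET and 1.29 and 1.21 in KO. The summed share of reads, which has no such scaling, was higher in KO for the miR-181, miR-30 and miR-26 list. It was 26.1% and 27.3% in HET and 28.4% and 28.7% in KO. The let-7, miR-17-92 and miR-9 list shares were lower in both KO libraries than in both HET libraries. In calls over the same step, 6 of 77 members of the 12qF1 cluster rose and none fell, beside 1.97% of all tested miRNAs that rose, and the neuron-enriched list had 2 that rose and 1 that fell. For the 12qF1 members named above, the call depended on the library left out. The median log2 fold change of the 12qF1 list, KO minus HET, was 0.57 with all libraries and 0.45 without HET replicate 2. The summed share of reads of the 12qF1 cluster was 4.57% and 3.80% in HET against 8.76% and 7.44% in KO. Of the DGCR8-independent list 1 of 16 rose, and its share was 0.570% and 0.535% in HET against 0.883% and 0.899% in KO. None of the vessel, epithelial, Hox, muscle, mesenchymal and Sfmbt2-type members was called in this contrast.

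**Figure D4:**
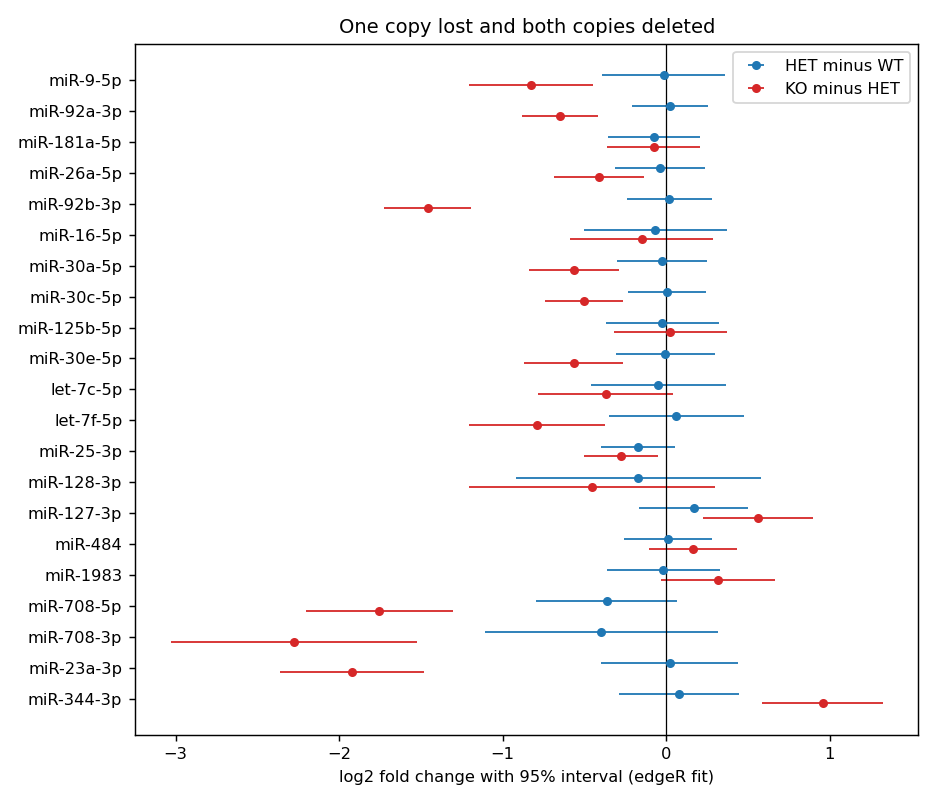
Log2 fold change with its 95% interval from the edgeR fit for 21 named miRNAs, HET minus WT in blue and KO minus HET in red, 2 libraries per group. All blue intervals drawn hold 0, while miR-92b-3p lies at -1.46 and miR-344-3p at 0.96 in the red comparison. Some of the miRNAs drawn were picked for their call in KO against HET. Over all 557 miRNAs, 23 HET minus WT intervals exclude 0. Among them are those of miR-143-3p (0.12 to 1.37) and miR-335-3p (0.02 to 0.85), which are not drawn.

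The second question was whether the 3′ ends of miRNAs differed. The table separates reads with no base added to the mature name from those with 1 to 3 added bases. An added base can come from a transferase or from a cut further along the hairpin, and sequences of the latter kind are shown by 2 miRNAs, with the mature sequence in lower case and the next 3 hairpin bases in capitals.
miR-30c-5p: uguaaacauccuacacucucagcUGU
miR-30e-5p: uguaaacauccuugacuggaagCUG
For miR-30c-5p, whose next base is U, a suffix made only of T was on 93.6% and 93.5% of reads in WT and on 93.5% and 93.3% in HET. For miR-30e-5p, 99.7% and 99.6% of reads in WT and 99.7% and 99.6% in HET carried some suffix.

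Over whole libraries, 38.3% and 37.4% of reads carried any addition in WT and 38.5% and 37.7% in HET. T-only additions were on 21.6% and 20.9% of reads in WT and on 22.1% and 20.8% in HET, and A-only additions on 3.49% and 3.40% against 3.32% and 3.41%. The groups overlapped in each of the 3. The difference between means, HET minus WT, was 0.228 percentage points for any addition (exact permutation p = 0.667, two-sided), 0.216 for T-only (exact p = 1) and -0.0810 for A-only (exact p = 0.667). With 2 libraries against 2 the smallest p this test can give is 0.33. C-only and G-only additions differed by 0.0251 and 0.0691 points, each with an exact permutation p of 1. Additions of 3 bases were on 5.14% and 5.06% of reads in WT and on 4.99% and 4.97% in HET, with no overlap, a difference of -0.120 points whose exact permutation p is that smallest value.

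Where RefSeq gives the hairpin, additions were split by whether they match its next bases. Matching additions were on 21.8% and 21.4% of reads in WT and on 22.5% and 21.6% in HET. Additions that differ from the hairpin were on 11.7% and 11.5% of reads in WT and on 11.4% and 11.5% in HET. Of the latter, T-only additions were on 3.74% and 3.70% of reads in WT and on 3.63% and 3.62% in HET, and on 4.03% and 3.97% in KO. A-only additions that differ from the hairpin were on 2.10% and 2.07% of reads in WT, 2.00% and 2.12% in HET and 1.79% and 1.80% in KO. The T-only HET values lay below both WT values by less than 0.2 points, and the A-only HET values lay on either side of them.

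Each miRNA was then tested for its own share, on counts with and without the addition, where it had at least 100 reads in each of the 4 libraries. By edgeR's quasi-likelihood test, 0 of 252 miRNAs were called for any addition (0%), 0 of 252 for T-only (0%) and 0 of 250 for A-only (0%). Unadjusted, 9, 8 and 6 had a p below 0.05, and the lowest adjusted p were 0.991, 0.942 and 0.953. No other tool was run on the shares, and leaving out any of the 4 libraries also gave 0 calls. The median size of the difference between HET and WT was 0.7997, 0.410 and 0.263 percentage points, against 0.963, 0.569 and 0.392 between the WT libraries and 1.18, 0.742 and 0.483 between the HET libraries. The 95% interval lay within 1 on the log2 odds scale for 207, 175 and 142 miRNAs.

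The abundant miRNAs kept their own characteristic ends in both genotypes. T-only additions were on 68.0% and 67.4% of miR-92a-3p reads in WT and on 69.5% and 67.9% in HET, and on 1.67% and 1.65% of miR-9-5p reads in WT and 1.56% and 1.61% in HET. A-only additions were on 12.6% and 12.7% of miR-125b-5p reads in WT and on 11.4% and 12.1% in HET, both below WT. On miR-92b-3p they were on 9.01% and 8.75% in WT and on 8.78% and 8.84% in HET. miR-101a-3p had T-only additions on 28.1% and 30.3% of reads in WT and on 28.1% and 31.2% in HET, and miR-101b-3p on 9.88% and 8.20% against 8.48% and 8.17%. These levels differ far more between miRNAs than between the genotypes.

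The lowest unadjusted p values mark the largest differences against the spread, none of them called. T-only additions on miR-99b-5p, of the let-7e cluster, were on 7.51% and 6.96% of reads in WT and on 6.17% and 6.01% in HET, with no overlap, a log2 odds change of -0.27 ± 0.09 (unadjusted p = 0.00374, adjusted p = 0.942 by edgeR's quasi-likelihood test). Any addition on miR-187-3p was on 56.2% and 51.2% of reads in WT and on 42.8% and 41.7% in HET, a log2 odds change of -0.68 ± 0.26 over 129 to 168 reads a library (unadjusted p = 0.0130, adjusted p = 0.991 in that test). T-only additions on miR-674-3p were on 17.5% and 19.6% in WT and on 23.8% and 25.4% in HET, a log2 odds change of 0.52 ± 0.20. miR-409-3p for any addition, miR-182-5p for T-only, and miR-99a-5p, miR-8114 and miR-434-3p for A-only complete the lowest 3 of each kind. For miR-182-5p, HET replicate 2 had the low share, 20.3% against 28.8% in HET replicate 1, and the log2 odds change of -0.44 became 0.05 without it, and for miR-8114 only HET replicate 2 had any A-only read.

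**Figure D5:**
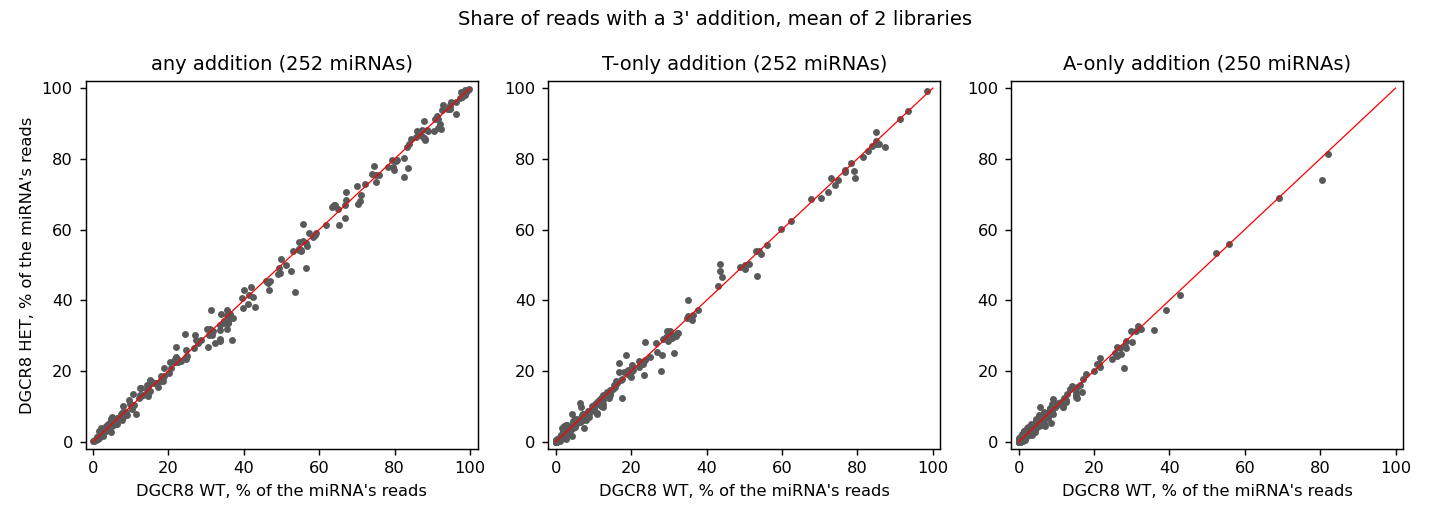
Share of a miRNA's reads with any, a T-only or an A-only 3′ addition, mean of the 2 DGCR8 WT libraries against mean of the 2 DGCR8 HET libraries; each point is a miRNA with at least 100 reads in each of the 4 libraries, and the line marks equal shares. Points follow the line over the whole range, with a median distance of 0.7997 percentage points for any addition.

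Between KO and HET the same test, added after the data were seen, called 3 of 252 miRNAs for any addition (1.19%), 26 of 252 for T-only (10.3%; 24 higher and 2 lower in KO) and 15 of 250 for A-only (6%; all 15 lower). let-7c-5p had T-only additions on 4.30% and 4.17% of reads in WT, 4.16% and 3.92% in HET and 5.36% and 5.07% in KO, a rise over HET of 0.39 ± 0.09 in log2 odds (adjusted p = 0.0060 by edgeR's quasi-likelihood test). The next base of let-7c-5p in its hairpins is U, so an added T can also come from a cut further along the hairpin. Which it was here was not tested. miR-151-5p had A-only additions on 56.1% and 55.3% of reads in WT, 56.7% and 55.0% in HET and 46.0% and 46.5% in KO, a fall of 0.56 ± 0.08. On miR-92b-3p the A-only share fell from 8.78% and 8.84% in HET to 6.73% and 6.62% in KO. The T-only count dropped to 1 without HET replicate 2, 2 without HET replicate 1, 0 without KO replicate 1 and 7 without KO replicate 2, while the A-only count was 9 without HET replicate 2, 7 without KO replicate 1 and 8 without KO replicate 2.

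Entry by entry, with each mature name and suffix alone, 0 of 2169 were called in HET against WT (0%) by edgeR's quasi-likelihood test, with 106 below an unadjusted p of 0.05. The balance of the 2 arms of a hairpin, also added after the data were seen, gave 0 calls among 166 hairpins (0%), with 9 below an unadjusted 0.05 and a median difference in the 5p share of 0.240 percentage points. Hairpins with nearly all reads on 1 arm leave little room for such a difference, and they are part of that median. miR-101b, miR-320 and miR-494 had 0% from the 5p arm in every WT and HET library, so they could not be called. miR-1298, a choroid plexus miRNA, had 94.1% and 89.3% of its reads from the 5p arm in WT and 92.3% and 97.3% in HET, with the HET values on either side of WT replicate 1.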

How the data were processed

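The authors deposited a table of raw read counts, 19414 entries by 10 libraries, each entry naming a mature miRNA and the 0 to 3 bases added to its 3′ end. Per the labels' protocols, RNA came from a miRNeasy kit and libraries from a TruSeq small RNA kit. Per the submitters' processing notes, Bowtie and GRCm38 were used; the version, mismatch setting and rule for multiply mapped reads were not given in the sources used here. Total sequenced reads were not used, and depth here is the sum of a library's miRNA counts.

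Counts were summed per mature name, of which 1249 had a read and 557 passed edgeR's filterByExpr (minimum count 10, minimum total 15); the other names took 0.0297% to 0.0476% of reads. All 10 libraries of 5 groups were fitted together with TMM by edgeR 4.0.16 (glmQLFit, glmQLFTest; R 4.3.3, limma 3.58.1), with a biological coefficient of variation of 0.23 and 9.2 total degrees of freedom. P-values are two-sided, adjusted by Benjamini-Hochberg over all miRNAs tested, and called below 0.05; 95% intervals are from the fit. Shares of 3′ additions were fitted by edgeR on pairs of counts with 1 term per library. DESeq2 1.42.0 was an alternative. The fits were tested on simulated data. Replicates are separate mice per the series design, and no pair agreed within sampling noise (chi-square per degree of freedom 12.0 in WT, 52.4 in HET).

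Named miRNAs are the 10 most abundant, the 5 highest and 5 lowest at 100 CPM or more without overlap, the members of the Dgcr8 hairpin and of the list from other work, and the 2 most abundant of each other list; for 3′ ends, the abundant ones, miR-101a-3p, miR-101b-3p and the 3 lowest p of each kind. Others were named after their values were seen. Members and lists were chosen with earlier results of these data known. Alternatives covered scaling, filter, samples in the fit, DESeq2, suffixes, coverage, replicate block and each library left out.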

Additional observations from a re-analysis of the deposited data

How the results depend on the processing

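No called miRNA among those named changed direction under any alternative run. The count of miRNAs called in HET against WT stayed at 0 under library totals, DESeq2, the DGCR8 libraries alone, reads without additions and the replicate block; it was 18 with no filter and from 0 to 13 with a library left out. For KO against HET the 48 calls became 76 under library totals, 81 under DESeq2, 85 with no filter, 97 in the DGCR8 libraries alone and from 5 to 54 with a library left out. Replicate numbers did not pair the mice (correlation of deviations 0.04 between WT and HET and -0.08 between HET and KO), and the replicate block gave 48 calls there. Suffix entries called in HET against WT numbered 35 with no filter and from 0 to 20 with a library left out. Library-wide differences moved to -0.218 points for A-only and 0.177 for G-only without the 10 most abundant miRNAs, and to -0.0240 for C-only as a mean over miRNAs. In KO against HET, additions of any kind gave 31 calls in the DGCR8 libraries alone, 14 with the replicate block and from 1 to 4 with a library left out; T-only gave 41 in the DGCR8 libraries alone and from 0 to 7; A-only gave 26 and from 7 to 13. The 5p-arm share gave 1 call in the DGCR8 libraries alone. The cause of these changes was not tested. With 2 mice a genotype, the interval of the fit lay within 2-fold for 19 of 174 miRNAs under 10 CPM in WT. These intervals were not adjusted for the number of miRNAs, and the size of difference that could be called was not tested at any level. miR-92b-3p, miR-23a-3p and miR-708-5p kept their calls in KO against HET under every alternative run.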

Other observations

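miR-673-5p of the 12qF1 cluster, singled out after its values were seen, was present in 1 mouse and at or near 0 in the other in both WT and HET, and present in both KO mice. It was at 61.6 CPM in WT replicate 1 and listed at 0 in WT replicate 2, at 1.31 CPM in HET replicate 1 and 57.1 CPM in HET replicate 2, and at 102.4 and 77.5 CPM in KO. Its log2 fold change in HET against WT was -0.09 with all libraries and -4.52 without HET replicate 2. No explanation was tested.

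In the neuron-enriched list, miR-7b-5p, also chosen after its values were seen, was at 21.5 and 21.2 CPM in WT and at 43.6 and 30.1 CPM in HET, and miR-7a-5p was at 247 and 285 CPM in WT and at 450 and 271 CPM in HET. HET replicate 1 was the higher library for both, and neither was called (log2 fold change 0.79 ± 0.37 for miR-7b-5p and 0.44 ± 0.28 for miR-7a-5p, adjusted p = 0.993 for each by edgeR's quasi-likelihood test).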
